A study of Mus musculus with 6 samples.

Results

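The genes described here are 35 genes of motile cilia and of the oviduct, chosen by name: Ovgp1, the oviduct-specific glycoprotein (oviductin), and 34 genes that build or switch on motile cilia. All 35 were found by exact symbol among the 44788 genes of the table, and each had at least 1 read. The samples were endometrium, the inner lining of the uterus, from female mice of the outbred ICR strain with adenomyosis, a condition in which endometrial tissue lies within the muscle wall. Adenomyosis had been induced in both groups alike, with oral tamoxifen (2.7 µmol/kg) during days 2 to 5 of life. Some 75 days on, 8 mice were given the GnRH agonist Decapeptyl (spelled Decapetyl in the labels) into the abdomen in daily doses of 1.5 µg per 100 g of body weight from day 3 to day 9 of estrus, and 8 others solvent alone. Mating followed 4 weeks later, and the lining was collected by scraping on pregnancy day 4. There were 3 libraries for each treatment. Whether each library came from 1 animal is not stated, so a p-value here reflects variation among libraries, which may be technical.

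Motile cilia are beating hair-like projections. Each holds an axoneme of microtubule doublets around a central pair, moved by dynein arms and held in register by radial spokes and nexin links. In the female tract they are abundant on the multiciliated cells of the oviduct, beside secretory cells that release Ovgp1, whose production is responsive to estrogen. The factor Foxj1 switches on the genes of motile cilia, together with factors of the RFX family. The question put to the data was whether the cilia genes follow Ovgp1 from library to library, since both would be high in a library holding oviduct tissue.

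Most of the cilia genes did not share a peak with Ovgp1. Ovgp1 was highest in agonist library 1, and 24 of the 34 cilia genes were highest in agonist library 3. In agonist library 1 peaked 5 of the 34 (14.7%), namely Rsph1, Hydin, Spag16, Ccno and Drc1. Across all genes with a read, agonist library 3 held the highest level of 19.9%, or 5581 of 28089, and agonist library 1 that of 4221. Levels are CPM, read counts scaled to library size with TMM factors. All 3 agonist libraries lay above all 3 others for 8 of the 35 genes (22.9%), against 5.60% of genes with a read. For 0 of the 35 they lay entirely below, against 5.72%. Of the 35, 15 had enough reads for edgeR's quasi-likelihood test of agonist against no agonist. After adjustment 0 of these 15 passed, as did 0.0% of all genes tested. At an unadjusted p under 0.05 the test found 1 of the 15 higher, Ovgp1, against 4.17% of genes tested. DESeq2 called 1 higher, Ovgp1, against 0.979% of genes, and gave no adjusted p to 19 of the 35. Each count is 1 gene, too few to compare with a share.

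Library totals ranged from 11720958 to 14104266 counts. The floor of 3 counts is about the 95% upper limit on the expected count where 0 are seen. It corresponded to 0.213 to 0.256 CPM before TMM scaling. Intervals and floors cover counting error alone, and a floor covers it only in the group at 0. Marker lists of tissues were set beside the tissue label. All 14 epithelial, 11 stromal and 8 smooth muscle markers had enough reads to be tested. So had all 8 markers of mesothelium and 6 of 7 squamous markers of vagina and cervix. Having enough reads therefore does not tell these tissues apart and is no check of the label. The 8 smooth muscle markers were all highest in no-agonist library 3, against 21.6% of genes with a read. All 8 had a log2 fold change below 0 (median -0.83). In edgeR's quasi-likelihood test 0 of the 8 were called and 0 were at an unadjusted p under 0.05. They summed to 7764, 7411 and 18915 CPM without the agonist and to 11424, 2849 and 3563 CPM with it. The part of this tissue difference in the results was not tested. Agonist library 1 had the highest share of mitochondrially encoded reads, 3.89% against 1.22 to 2.92% elsewhere. Its share of 18S ribosomal RNA, 1.94%, was exceeded by no-agonist library 2 at 3.31% and was 0.254 to 0.369% in the other 4. Because tissue was measured in bulk, more cells of a type and more RNA per cell cannot be told apart.

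Sequences of the region before the gene start are shown for Ovgp1 and for 3 axoneme genes with at most 1 read in the group without agonist, because RFX factors bind the promoters of cilia genes. The RefSeq table (GRCm38.p6) held a window for 28 of the 35 genes. It lacked Foxj1, Rsph1, Rsph4a, Lrrc6, Armc4, Tppp3 and Ttc25. Capitals mark the letters GTTGCC, the core of the RFX motif, or its reverse complement GGCAAC. Each line gives the 250 bases before the start, 5′ to 3′ on the gene's strand.
Ovgp1, chr3:105973552-105973801, plus strand: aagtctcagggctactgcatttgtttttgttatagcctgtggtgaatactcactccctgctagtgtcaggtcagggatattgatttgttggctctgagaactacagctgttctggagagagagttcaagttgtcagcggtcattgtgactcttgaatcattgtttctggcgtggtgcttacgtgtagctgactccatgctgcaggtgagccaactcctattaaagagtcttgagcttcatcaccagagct
Dynlrb2, chr8:116504765-116505014, plus strand: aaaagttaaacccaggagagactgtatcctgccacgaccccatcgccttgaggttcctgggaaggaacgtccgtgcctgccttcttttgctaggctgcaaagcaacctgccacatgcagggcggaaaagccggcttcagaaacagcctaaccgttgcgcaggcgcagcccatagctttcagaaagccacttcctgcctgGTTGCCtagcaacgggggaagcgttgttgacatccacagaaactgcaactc
Tekt1, chr11:72361883-72362132, minus strand: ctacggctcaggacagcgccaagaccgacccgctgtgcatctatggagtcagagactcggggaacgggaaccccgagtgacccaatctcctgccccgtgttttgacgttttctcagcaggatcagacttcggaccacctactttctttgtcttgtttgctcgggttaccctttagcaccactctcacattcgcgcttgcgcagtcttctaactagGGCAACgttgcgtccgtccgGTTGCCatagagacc
Dnaic2, chr11:114727169-114727418, plus strand: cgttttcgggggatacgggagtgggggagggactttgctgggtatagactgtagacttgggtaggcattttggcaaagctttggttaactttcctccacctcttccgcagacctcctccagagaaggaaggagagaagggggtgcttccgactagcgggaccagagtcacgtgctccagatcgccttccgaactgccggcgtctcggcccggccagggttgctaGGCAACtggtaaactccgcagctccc
The Ovgp1 window has neither form. Dynlrb2 and Dnaic2 have 1 match each. Tekt1 has 2 in the first of its windows, in opposite orientations. Over the whole windows, which also take in the 50 bases after the start, GTTGCC was found on either strand in 15 of the 28 genes (53.6%, first window of each gene), against 12.7% of all 27025 genes in the table. The forkhead core GTAAACA, the kind of site that Foxj1 binds, was found in 1 of the 28, Ak7 (3.57%), against 3.55% of all genes. A match describes letters and not a bound site.

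**Figure D1:**
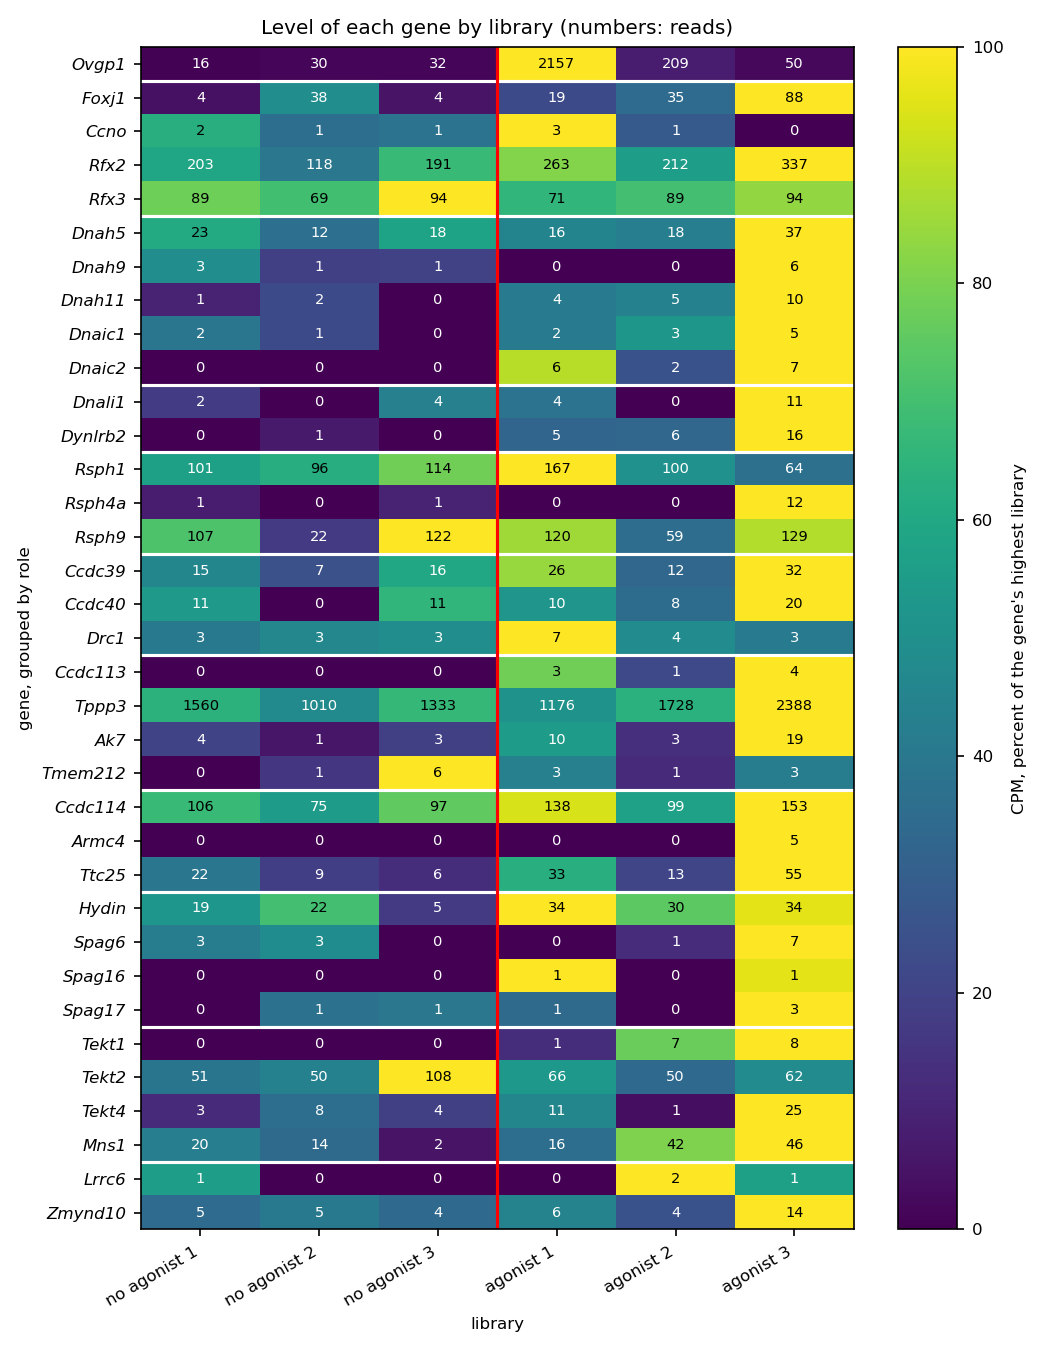
Level of each of the 35 genes (rows, grouped by role) in each of the 6 libraries (columns), as a percent of that gene's highest library, with read counts printed in the cells and a line between the groups. Ovgp1 peaks in agonist library 1 with 2157 reads, and 24 of the other rows peak in agonist library 3.

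Ovgp1 had the largest fitted fold change of the 15 tested genes, and its agonist libraries were uneven. Its reads numbered 16, 30 and 32 in the group without agonist and 2157, 209 and 50 in the agonist group. In CPM these were 1.21, 2.61 and 2.94 against 173, 14.2 and 3.85. The groups did not overlap, but agonist library 3 lay only slightly above no-agonist library 3, and agonist library 1 held most of the reads. The mean was 63.7 ± 94.8 CPM with the agonist and 2.25 ± 0.920 without it (SD, n = 3 each). The fitted log2 fold change was 4.83 ± 1.36 (SE), with an adjusted p = 0.345 in edgeR's quasi-likelihood test over all genes, and an unadjusted p = 0.00815. In that test 4.17% of the 16581 genes tested were higher at an unadjusted p under 0.05, 5.09% lower, and 0.0% passed after adjustment. DESeq2 called Ovgp1 higher (log2 fold change 4.81, adjusted p = 0.0284), beside 0.979% of genes called higher by that tool. Without agonist library 1 edgeR's fitted log2 fold change of Ovgp1 was 2.02 (adjusted p = 0.328). Ovgp1 lies on chromosome 3, 105973711 to 105987423 (GRCm38, plus strand). The noncoding Gm42890 overlaps it on the same strand, so reads in the shared part may have been left uncounted.

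Of 13 genes listed as oviduct regional or secretory markers, Cyp2f2 shared the library order of Ovgp1. This cytochrome P450, best known from airway club cells, gave 2, 5 and 14 reads without the agonist and 225, 85 and 34 with it. It too was highest in agonist library 1, and its groups did not overlap. Its log2 fold change was 3.83 ± 0.96 (SE) with adjusted p = 0.317 in edgeR's quasi-likelihood test. Its r with Ovgp1 over the 6 libraries was 0.92 and its rho 1.0 on log2 CPM (exact permutation p = 0.00139 for r and 0.00278 for rho, adjusted p = 1.0 and 1 over all genes tested). Without agonist libraries 1 and 2, the farthest from the median of Ovgp1, r was 0.92. With 720 orders no p for r can lie below 0.00139, so adjusted p stays high unless many genes reach that value. Other genes of this list went differently. Of the 10 tested, 6 had a log2 fold change below 0. At an unadjusted p under 0.05 in edgeR's quasi-likelihood test 2 were lower, Lcn2 (-1.88) and Serpina9 (-1.74), against 5.09% of genes tested. Cyp2f2 was the 1 higher, against 4.17%. Pax8, a factor of the oviduct and uterine epithelium, gave 1188 to 2051 reads without the agonist and 1271 to 1577 with it, and Pax2 gave 698 to 941 and 700 to 1011. These ranges overlapped. Lhx1 was at 0 in all 6 libraries, and the secreted Lcn2 was lowest in agonist library 3 with 4906 reads. Summed over the list, dominated by Lcn2, the level was 3694 to 6821 CPM without the agonist and 857 to 2916 CPM with it.

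Markers of other tissues near the oviduct varied with agonist library 1 in part. Of 8 mesothelial markers 5 were highest there, among them the surface protein Msln with 167 reads there, 50, 0 and 50 without the agonist, and 0 and 2 in agonist libraries 2 and 3. No-agonist libraries 1 and 3 thus held Msln reads while Ovgp1 was low in them. The summed level of the mesothelial list, dominated by the keratin Krt19, was 1318 to 2782 CPM without the agonist and 940 to 1133 with it. Gene by gene the direction differed, as 7 of the 8 had a log2 fold change above 0 and 1 below (median 0.31). In edgeR's quasi-likelihood test 0 were called. At an unadjusted p under 0.05, 0 were higher, against 4.17% of genes tested, and 1 lower, against 5.09%. Of 18 ovarian markers 6 were at 0 throughout, including the steroid enzymes Cyp11a1 and Cyp19a1 and the FSH receptor Fshr, and 4 were tested, with 0 called. Star, which brings cholesterol to the steroid enzymes, gave 39, 67 and 179 reads against 225, 59 and 32, highest in agonist library 1 as Ovgp1 was, and Foxl2 was lowest there with 38 reads. The summed level of the list was 25.0 to 28.6 CPM without the agonist and 27.5 to 32.1 with it. Of 12 sperm and spermatid markers 8 were at 0, the protamines Prm1 and Prm2 among them. The part of other tissues in the Ovgp1 result was not tested beyond these values.

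Among the regulators, Foxj1 gave 4, 38 and 4 reads without the agonist and 19, 35 and 88 with it. In CPM these were 0.302, 3.31 and 0.367 against 1.52, 2.38 and 6.77. Agonist library 3 was highest, but no-agonist library 2 lay above agonist libraries 1 and 2, so the groups overlapped. The log2 fold change was 1.42 ± 0.99 (SE), adjusted p = 0.727 in edgeR's quasi-likelihood test. Without no-agonist library 2 it was 3.38 (adjusted p = 0.498), without agonist library 3 it was 0.56 (adjusted p = 1.0), and without no-agonist libraries 1 or 3 in turn it was 0.94 and 0.99. Foxj1 (chromosome 11, 116330704 to 116335399, minus strand) overlaps no other annotated gene. Rfx2, a co-regulator of cilia genes, was more abundant per length than Foxj1, at 2.80 against 1.36 CPM per kilobase of exon in the agonist group. Its reads numbered 203, 118 and 191 in the group without agonist and 263, 212 and 337 in the agonist group, a log2 fold change of 0.51 ± 0.32 (SE), adjusted p = 0.683 in the same edgeR test. Its relative Rfx3 gave 89, 69 and 94 reads without the agonist and 71, 89 and 94 with it. Ccno, a cyclin-like protein that acts when the many basal bodies of a multiciliated cell are made, had 4 reads in each group. No-agonist library 2, with its 38 Foxj1 reads, held 0 reads of Dnaic2 and Tekt1 and 1 of Dynlrb2, but 22 of Hydin and 8 of Tekt4, the most of its group for both.

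**Figure D2:**
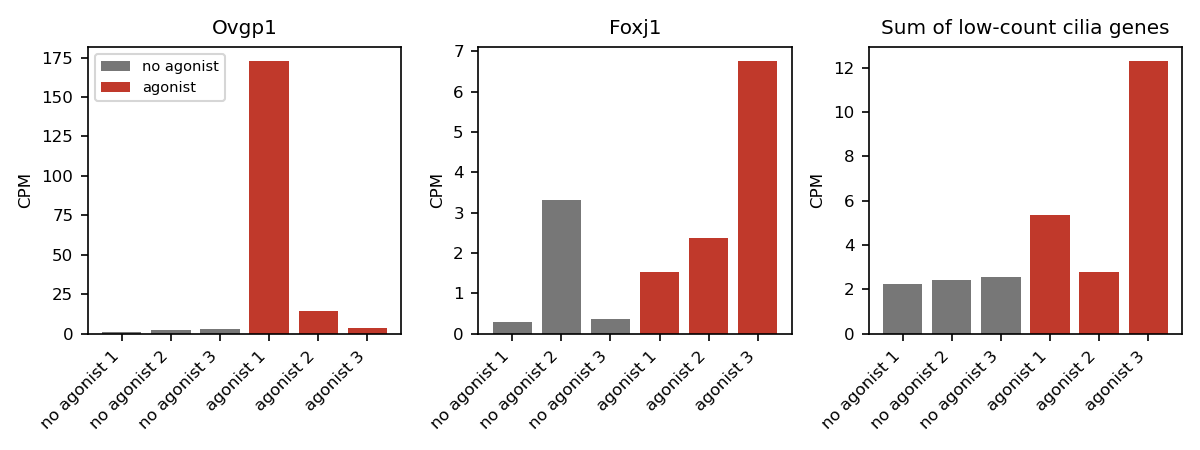
CPM per library of Ovgp1, of Foxj1, and of the 20 genes with too few reads for the test summed together, with grey bars for the group without agonist and red bars for the agonist group. Ovgp1 stands at 173 CPM in agonist library 1, while Foxj1 at 6.77 CPM and the summed genes at 12.3 CPM are highest in agonist library 3.

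Of the 35 genes 15 had enough reads to be tested, and 20 did not. The 20 low genes summed to 30, 28 and 28 reads without the agonist and 67, 41 and 160 with it. In CPM the sums were 2.26, 2.44 and 2.57 against 5.38, 2.78 and 12.3. Agonist library 3 was thus the highest and agonist library 1 the next, with agonist library 2 close to the group without agonist. With agonist library 3 set aside, 14 of the 34 cilia genes were highest in agonist library 1, against 19.4% of genes with a read, and 6 in agonist library 2, against 21.3%. In no-agonist library 3 peaked 9, against 24.7%. No-agonist libraries 1 and 2 held 2 each, against 15.4% and 17.2%. These low counts carry wide intervals, so each gene alone says little.

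The outer dynein arm holds the motors that drive the beat. Of its 5 heavy and intermediate chains all 5 were highest in agonist library 3. Dnaic2 gave 0 reads in each no-agonist library and 6, 2 and 7 in the agonist libraries. Set against a floor of 3 counts over the group, its level was 4.96-fold higher, with counting error in the agonist reads left out. Dnah11 gave 1, 2 and 0 reads against 4, 5 and 10, and its pooled ratio was 6.28 (95% exact interval 1.85 to 33.1, counting error only). Dnaic1 gave 2, 1 and 0 against 2, 3 and 5, with a ratio of 3.30 (0.851 to 18.7). For these 3 genes the agonist libraries all lay above the others in CPM. Dnah9 was different, with 3, 1 and 1 reads against 0, 0 and 6, so agonist library 3 alone held its agonist reads. Dnah5, the one heavy chain with enough reads to be tested, gave 23, 12 and 18 against 16, 18 and 37 reads, a log2 fold change of 0.27 ± 0.51 (SE) that was smaller than its error. Dnah11 lies in part opposite Cdca7l and Dnaic1 opposite Enho, so without a stated strand setting their few reads are uncertain.

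The docking and assembly proteins hold the outer arm on the doublet or build it in the cytoplasm. Ttc25 gave 22, 9 and 6 reads without the agonist and 33, 13 and 55 with it, a log2 fold change of 1.35 ± 0.69 (SE), adjusted p = 0.609 in edgeR's quasi-likelihood test. Agonist libraries 1 and 3 lay above all others, and agonist library 2 lay within the range of the group without agonist. The docking gene Ccdc114 was more even, at 8.00, 6.53 and 8.91 CPM against 11.1, 6.72 and 11.8. Armc4 had 0 reads in 5 libraries and 5 in agonist library 3. Of the assembly factors, Zmynd10 gave 5, 5 and 4 reads against 6, 4 and 14, and Lrrc6 had 4 reads in all. The inner arm light chain Dnali1 gave 2, 0 and 4 reads against 4, 0 and 11. Dynlrb2, a dynein light chain of the roadblock family, gave 0, 1 and 0 against 5, 6 and 16, with a pooled ratio of 26.8 (95% exact interval 4.41 to 1096). Its groups did not overlap, and it showed the largest pooled ratio among the 34 cilia genes with a read in both groups.

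Radial spoke genes did not move as a group. Rsph1 was highest in agonist library 1, with 101, 96 and 114 reads without the agonist and 167, 100 and 64 with it, and was lowest of all in agonist library 3. Rsph9 gave 107, 22 and 122 against 120, 59 and 129 reads. Its span overlaps Mrps18a on the opposite strand. Rsph4a, a spoke head gene restricted to motile cilia, gave 1, 0 and 1 reads against 0, 0 and 12, all of its agonist reads in agonist library 3. The central pair gene Hydin gave 19, 22 and 5 reads against 34, 30 and 34. All 3 agonist libraries lay above the others and within a narrow range, 2.04 to 2.73 CPM, with a log2 fold change of 0.94 ± 0.55 (SE), adjusted p = 0.664 in edgeR's quasi-likelihood test. Together with Ovgp1 it was 1 of 2 tested genes whose groups did not overlap, where 6.94% of genes tested lay entirely above. The other central pair genes were rare, with 6 reads of Spag6, 0 of Spag16 and 2 of Spag17 without the agonist and 8, 2 and 4 with it.

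Ccdc39 and Ccdc40 form the molecular ruler that spaces the arms and spokes, and Drc1 belongs to the nexin link. Ccdc39 gave 15, 7 and 16 reads without the agonist and 26, 12 and 32 with it, and Ccdc40 11, 0 and 11 against 10, 8 and 20. Both were highest in agonist library 3, and in both the groups overlapped. Drc1 had 3 reads in each no-agonist library and 7, 4 and 3 with the agonist. Of the tektins, filament proteins inside the doublets, Tekt1 gave 0 reads in every no-agonist library and 1, 7 and 8 with the agonist. Set against the floor in the same way, this was 5.29-fold higher. Tekt4 gave 3, 8 and 4 against 11, 1 and 25. Tekt2 went the other way, highest in no-agonist library 3, at 3.85, 4.35 and 9.92 CPM against 5.30, 3.40 and 4.77. The doublet protein Mns1 gave 20, 14 and 2 reads against 16, 42 and 46, a log2 fold change of 1.38 ± 0.72 (SE), adjusted p = 0.623 in edgeR's quasi-likelihood test.

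The remaining genes differ in how far they are known from ciliated cells alone. Tppp3, a tubulin-binding protein also known from uterine stroma, was the most abundant of the 35 per length, at 71.3 CPM per kilobase of exon with the agonist and 59.2 without it. It was present in every library, at 87.9 to 122 CPM without the agonist and 94.3 to 184 with it. Ccdc113 gave 0 reads in every no-agonist library and 3, 1 and 4 with the agonist, 2.64-fold higher when set against the floor. The adenylate kinase Ak7 gave 4, 1 and 3 against 10, 3 and 19 reads, with a ratio of 3.96 (95% exact interval 1.79 to 9.96). Tmem212 had 7 reads in each group, most of them, 6, in no-agonist library 3.

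**Figure D3:**
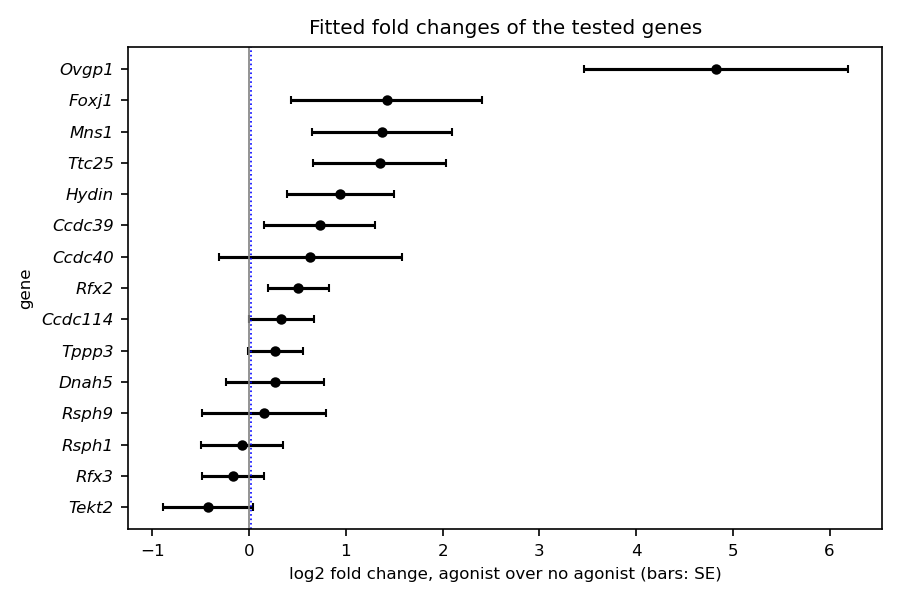
Fitted log2 fold changes of the 15 tested genes, agonist over no agonist, with standard errors as bars, a solid line at 0 and a dotted line at the median of all genes tested, 0.018. Ovgp1 stands apart at 4.83, and the other 14 lie between -0.43 and 1.42.

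By mean CPM 30 of the 35 genes were higher and 5 lower with the agonist (85.7%), against 52.6% of genes with a read. The 5 were Rsph1, Tekt2, Rfx3, Ccno and Tmem212, of which Rsph1, Rfx3 and Ccno had the higher mean with the agonist when library totals alone set the scale. Without agonist library 3 the count was 22 of 35, against 49.0% of genes with a read, and without agonist library 1 it was 28, against 49.5%. The tested genes had a median log2 fold change of 0.51, against 0.018 over all genes tested, but genes pass the filter on low counts through the group where they are high. With no filter beyond 1 read, the median over all 35 was 0.93, against 0.020 over all genes with a read, and 6 of the 35 were higher at an unadjusted p under 0.05 in edgeR's quasi-likelihood test, against 3.75% of genes. These were Ovgp1, Dynlrb2, Dnaic2, Tekt1, Ccdc113 and Dnah11, and the smallest adjusted p among the 35 in that fit was 0.115. None was lower, against 4.08%. Fitted folds of genes with a group at 0 depend on the prior count.

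None of the tested cilia genes among the 35 followed Ovgp1 closely over all 6 libraries, and 1 of the wider list did. Foxj1 had an r with Ovgp1 of 0.20 and a rho of 0.31 on log2 CPM over the 6 libraries (exact permutation p = 0.757 for r and 0.564 for rho, adjusted p = 1.0 for both over all genes tested). Without agonist libraries 1 and 2, r over the other 4 was 0.69. Within groups, after the group means were subtracted, it was -0.40. The median r with Ovgp1 of the 14 other tested genes was 0.18, against 0.016 over all genes tested. None of the 14 reached an r of 0.8, against 1.10% of genes tested. Hydin had the highest rho of them, 0.77 (exact permutation p = 0.103, adjusted p = 1.0 over all genes tested). Rsph1 had the highest r of them, 0.54 (exact permutation p = 0.279, adjusted p = 1.0). Within groups the r of Rsph1 was 0.98, where the median of the 14 was -0.18. Without agonist libraries 1 and 2 the r of Rsph1 was -0.29. Of the 41 tested genes of the wider cilia list 1 reached 0.8 (2.44%), the dynein assembly factor Dnaaf3, with an r of 0.91 and a rho of 0.94 (exact permutation p = 0.00278 for r, adjusted p = 1.0 over all genes tested). Dnaaf3 gave 46, 59 and 55 reads without the agonist and 102, 83 and 72 with it, and without agonist libraries 1 and 2 its r with Ovgp1 was 0.98. The tested genes of at least 5 CPM most like Ovgp1 by r were Nfix, S100a13, Acbd6, Cuedc2 and Grcc10, from 0.97 to 0.98, none of them a gene of the cilia lists used here.

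The cilia genes with enough reads did not closely follow Foxj1 either. Their median r with it was 0.15, against 0.036 over all genes tested, and none reached 0.8, against 3.22% of genes. Hydin, at 0.72, and Mns1, at 0.69, were the most like it (exact permutation p = 0.0847 and 0.119, adjusted p = 0.827 for both over all genes tested). The most like Foxj1 by r among genes of at least 5 CPM were BC068281, Srp54b, Nsd1, Dbt and Cpsf6, from 0.98 to 0.99. With 6 libraries, the r of 1 gene with another rests on few points, and libraries share depth and scaling.

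**Figure D4:**
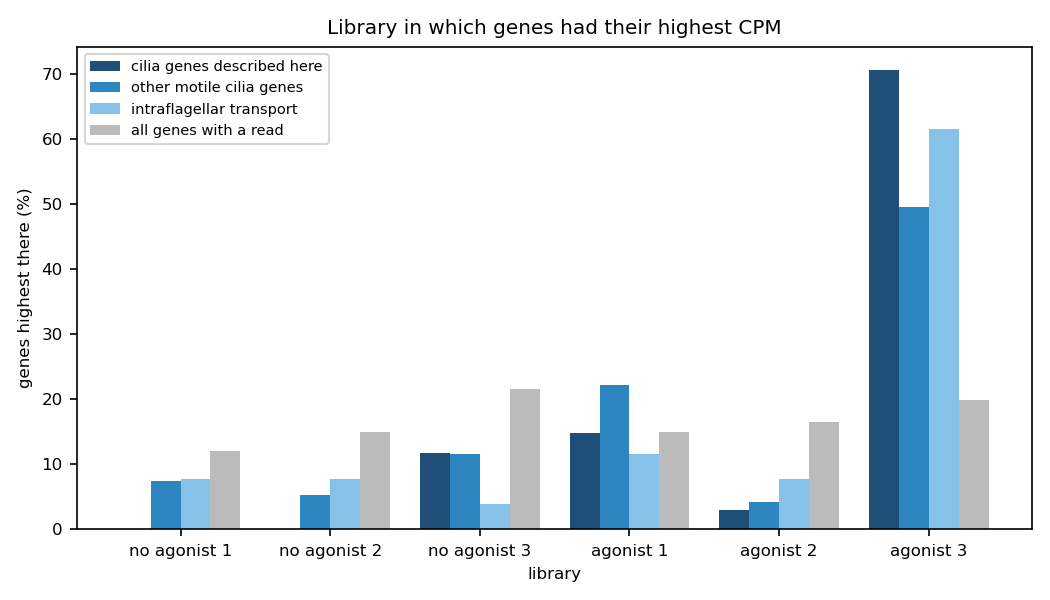
Share of genes whose highest CPM lay in each library, for the 34 cilia genes, 95 other motile cilia genes, 26 intraflagellar transport genes and all genes with a read. Agonist library 3 holds 24 of 34, 47 of 95 and 16 of 26, against 19.9% of all genes with a read.

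In the wider list of motile cilia genes, about as many genes peaked in agonist library 3 as in the other libraries together. The summed level peaked there only with the abundant Myb left out. Of 123 further symbols 96 were in the table and 95 had a read, of which 47 were highest in agonist library 3 and 21 in agonist library 1. Summed, the list stood at 514, 543 and 420 CPM without the agonist and 443, 407 and 484 with it, highest in no-agonist library 2. Myb alone gave 149, 145 and 73.6 CPM of this against 51.7, 67.7 and 60.9. Without Myb the sum is highest in agonist library 3. For 10 of the 95 the agonist libraries all lay above the others, against 5.60% of genes with a read, and for 2 below, against 5.72%. Of the 41 tested, 0 passed the adjusted threshold in edgeR's quasi-likelihood test, 0 were higher at an unadjusted p under 0.05, against 4.17% of genes tested, and 2 lower, against 5.09%. Those 2 were Myb, a factor of proliferating progenitors as well as of multiciliated cells, and Dpcd. The axonemal dynein gene Wdr78 gave 62, 86 and 95 reads without the agonist and 114, 155 and 277 with it, and the axoneme gene Enkur 19, 17 and 16 against 33, 24 and 76. In both the groups did not overlap and agonist library 3 was highest (adjusted p = 0.549 and 0.559 in edgeR's quasi-likelihood test). Gmnc, Ccdc67 and Mcidas, which act before Foxj1 or in making basal bodies, were picked out after their values were seen. Gmnc gave 1, 0 and 3 reads against 0, 4 and 16, Ccdc67 3, 2 and 1 against 3, 15 and 16, and Mcidas 1, 0 and 0 against 0, 3 and 4. Each was highest in agonist library 3. Other regulators of ciliated cells did not share this order. Trp73 gave 27, 8 and 2 reads against 37, 28 and 6, highest in agonist library 1, as Ccno was, and Ccdc78 gave 3, 1 and 2 against 0, 1 and 3.

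Intraflagellar transport serves motile cilia and the single primary cilium of many cell types. Its 26 genes in the table were all tested, and 16 were highest in agonist library 3, against 19.9% of genes with a read. For 7 the agonist libraries all lay above the others, against 6.94% of genes tested, and for 1 below, against 5.72% of genes with a read. At an unadjusted p under 0.05, 3 were higher, against 4.17% of genes tested, and 0 lower, against 5.09%, with 0 past the adjusted threshold in edgeR's quasi-likelihood test. Those 3 were Ift80, Ift57 and Dync2li1. Ift80 gave 159, 118 and 127 reads without the agonist and 187, 268 and 282 with it (adjusted p = 0.475 in that test). Ift57 measured 8.60, 6.44 and 9.46 against 12.0, 14.5 and 15.1 CPM.

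Most epithelial markers were lower with the agonist, while gland markers were mixed in agonist library 3, where most of the cilia genes were highest. Of 14 epithelial markers, 11 had a log2 fold change below 0 (median -0.63). In edgeR's quasi-likelihood test 7 were lower at an unadjusted p under 0.05, against 5.09% of genes tested, 0 higher and 0 called. For 5 the agonist libraries all lay below the others, against 5.72% of genes with a read. The 14 epithelial markers summed to 9707 to 15394 CPM without the agonist and 6209 to 8516 with it, and agonist library 3 was the lowest of the 6. Of the 14, 1 was highest there, the epithelial factor Grhl2, at 96.6 CPM against 53.3 to 74.6 elsewhere. The 7 squamous markers of vagina and cervix summed to 242 to 664 CPM without the agonist, and to 645, 310 and 45.3 in the agonist libraries. The 10 gland markers summed to 375, 632 and 299.8 CPM in the agonist libraries and 272 to 938 without it, a sum dominated by Prom1. Of the 10, 8 had a higher mean CPM with the agonist, against 52.6% of genes with a read. Of the 6 tested, 4 had a log2 fold change above 0 and 2 below, with 0 called. At an unadjusted p under 0.05 in edgeR's quasi-likelihood test 2 were higher, against 4.17% of genes tested, and 0 lower. By library, 5 of the 10 were highest in agonist library 2, 3 in agonist library 3 and 2 in no-agonist library 3. The shares of genes with a read were 16.5%, 19.9% and 21.6%. Some of the 10 stood higher in agonist libraries 2 and 3. Cxcl15, a chemokine of uterine glands, gave 10, 12 and 0 reads without the agonist and 17, 1210 and 907 with it, a log2 fold change of 6.37 ± 1.50 (SE), adjusted p = 0.300 in edgeR's quasi-likelihood test. Aldh1a1 gave 174, 289 and 118 against 108, 1060 and 1172 reads (adjusted p = 0.527). Foxa2, the factor of uterine glands, was highest in agonist library 3 with 267 reads, but its groups overlapped. The part of these differences in the cilia result was not tested.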

How the data were processed

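The values are gene-level read counts for 6 libraries, in the table the authors deposited, with a row per gene symbol. Total RNA was sequenced as single-end reads on the Proton platform, per the labels' protocols. The submitters' processing notes name the build mm10 (GRCm38) and HTSeq 0.6.1. For aligner, annotation and strand setting, nothing is given in the sources used here. Groups came from the source label, and library numbers follow accession order.

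Genes were kept by filterByExpr at its defaults (16581 of 44788), scaled by TMM and compared with edgeR's quasi-likelihood F-test on 3 against 3 libraries, with Benjamini-Hochberg adjustment over all genes tested and a threshold of 0.05. The versions were edgeR 4.0.16 and DESeq2 1.42.0 under R 4.3.3, and the test was tried on simulated data. Likeness used log2 CPM with a prior count of 2 and exact permutation over 720 orders. All 35 genes matched GENCODE M21 (GRCm38), and 21 overlap another annotated gene. All 35 genes were named whatever their values. From other lists up to 4 genes with the smallest p, genes at 0 and the 5 genes most like Ovgp1 and Foxj1 could be named, and Pax8, Pax2, Msln, Star, Foxl2, Grhl2, Prom1, Foxa2, Dnaaf3, Trp73, Ccdc78, Gmnc, Ccdc67 and Mcidas were chosen after their values were seen. The members and lists were chosen with earlier results of these data known. Alternatives were DESeq2, library totals, upper-quartile factors, other count filters, other likeness settings and leaving out each library.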

Additional observations from a re-analysis of the deposited data

How the results depend on the processing

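No paired analysis was possible because the labels give the libraries of the 2 groups different numbers and no litter, batch or day. DESeq2 called 166 genes higher (0.979%) and 255 lower (1.50%) where edgeR's quasi-likelihood test called 0 and 0. Of the 35 genes DESeq2 called 1, and 4 were higher at an unadjusted p under 0.05. With no filter beyond 1 read edgeR's counts were 8 and 28 over all genes. Among the 35, 6 were then higher at an unadjusted p under 0.05, against 3.75% of genes with a read. Leaving out each library gave 0 genes called higher in each case, 0 to 1 called lower, and 1 to 3 of the 35 higher at an unadjusted p under 0.05, and between 22 and 33 of the 35 with a higher mean. The lowest was without agonist library 3. For DESeq2 and the runs with a library left out, no share of all genes at an unadjusted p was computed. Their counts at that threshold therefore cannot be set against one. With library totals alone 33 of the 35 had a higher mean, and 28 of the 34 cilia genes were highest in agonist library 3. Ovgp1 stayed higher in every alternative run, with log2 fold changes from 2.02, without agonist library 1, to 5.38, and its adjusted p lay between 0.0284 (DESeq2) and 0.633 (no-agonist library 3 left out).

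The r of Foxj1 with Ovgp1 ranged from -0.10, without no-agonist library 1, to 0.48, without agonist library 1, and was -0.40 with group means subtracted. The median r of the 13 tested cilia genes other than Foxj1 was 0.17 with Ovgp1 and 0.15 with Foxj1. When each library was left out it ranged from -0.14 to 0.29 with Ovgp1, lowest where agonist library 1 was dropped, and from -0.48 to 0.41 with Foxj1, lowest where agonist library 3 was dropped. It was -0.14 and -0.19 with group means subtracted. Of 165 fold changes under alternatives 11 changed sign, in 6 genes, none of them past the threshold. Leaving out each library gave log2 fold changes of -0.24 to 0.48 for Dnah5, -0.58 to 0.20 for Rsph1, -0.29 to 0.65 for Rsph9, -0.67 to 0.13 for Tekt2 and -0.044 to 0.47 for Tppp3. The lowest values of Dnah5 and Tppp3 and the highest of Rsph1 came with agonist library 3 left out. With library totals alone Rsph1 was at 0.080 and Rfx3 at 0.0045. The causes were not tested. Depth limits the 20 genes with too few reads to be tested.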
